A study of Mus musculus with 2 samples.

Results

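Memory-type CD8 T cells of the mouse lung were selected from 2 single-cell RNA-seq libraries, 1 labelled GFI1 KO and 1 labelled WT, by the transcripts found in each cell. A cell was taken when it held at least 2 UMIs (unique molecular identifiers, each standing for 1 captured transcript) of the CD3 genes Cd3d, Cd3e and Cd3g and at least 1 UMI of Cd8b1, which encodes the CD8 beta chain. It also had to hold at least 2 of 6 memory genes (Klrc1, Gzmm, Samd3, Ly6c2, Ctla2a, Il2rb) and at most 1 of 6 effector genes (Gzma, Gzmb, Gzmk, Klrg1, Cx3cr1, Fasl). Cells with any UMI of Trdc, Cd4, Ebf1, Csf1r, Mertk or Ptprb, which mark γδ T cells, CD4 T cells, B cells, myeloid cells, macrophages and endothelium, were left out. Of 29837 cells that passed the quality filters, 461 met the rule. The GFI1 KO library gave 168 of its 10495 cells and the WT library 293 of its 19342 cells.

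The study examined live lung cells of adult mice with and without GFI1, a zinc-finger repressor of transcription. The GFI1 KO mice lack the gene in every tissue, and all mice of the study were kept on the C57BL6/J background. They were aged from 5 to 8 weeks, and sorting kept live cells of every type. With 1 library per label there is no test, and a difference between genotypes cannot be told apart from a difference between mice or libraries. All intervals are exact 95% intervals and cover counting error only.

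CD8 T cells can take on a memory program without having met a foreign antigen. Such innate-like or virtual memory cells respond to the cytokine IL-4 and, through the receptor chain CD122, encoded by Il2rb, to IL-15. They carry CD44 and the transcription factors Eomes and T-bet, keep lymph node homing receptors of naive cells, and have little of the integrin CD49d, encoded by Itga4, which antigen-experienced memory cells carry. The remaining CD8 T cells of each library served for comparison. Naive-type cells held fewer than 2 memory genes and at most 1 effector gene. Effector-type cells held at least 2 effector genes.

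Before filtering, the files held 10700 cells and 116825535 gene UMIs for the GFI1 KO label, and 19515 cells and 162599284 gene UMIs for the WT label. Memory-type cells had a median of 8434.5 UMIs (range 2846 to 30248) in the GFI1 KO library and 7839 UMIs (2588 to 44319) in the WT library. Naive-type cells had medians of 6571 and 6073, and effector-type cells 5867.5 and 6053.5. Mitochondrial genes took a median of 3.69% and 3.37% of the UMIs of memory-type cells. Ribosomal, mitochondrial and Gm- genes, which were left out of all levels, took 38.2% of their UMIs in the GFI1 KO library and 32.9% in the WT library. The part of this gap in the results was not tested beyond the change of denominator given with the gene counts. The libraries shared 74 cell barcodes. No barcode belonged to memory-type cells of both libraries, and 1 memory-type cell had a barcode that was also in the other library.

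Among the WT memory-type cells, 3 stood apart by transcripts of other cells, with over 20 UMIs of marker genes of B cells, myeloid cells, epithelium, endothelium, fibroblasts, red cells or platelets. No GFI1 KO memory-type cell passed that limit, and the highest held 11 such UMIs. The most extreme WT cell held 15829 such UMIs of its 44319, of which 15691 were of Scgb1a1, the secretoglobin of airway club cells. The other cells held 271 of 30096 and 54 of 10127 UMIs. The cell with 271 was also called a doublet by Scrublet. Counts of genes that change without these 3 cells are given with and without them.

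Summed over all memory-type cells, the epithelial list stood at 25.04 CPM (UMIs per 1000000 of the cells' remaining UMIs) in the GFI1 KO library and at 9811 CPM in the WT library, or 179 CPM without the 3 cells. Scgb1a1 led that list in both libraries, and 7 of its 10 genes, Krt8 and Ager among them, were at 0 under the GFI1 KO label. B cell markers summed to 206 and 663 CPM (305 without the 3 cells), led by Ighm under the GFI1 KO label and by Cd74 in the WT library, or by Ighm there too without the 3 cells, with Cd79a and Ms4a1 at 0 under the GFI1 KO label. Neutrophil and monocyte markers summed to 214 and 166 CPM, led by Lyz2, with Ngp, Camp and Ly6g at 0 in both. NK cell markers summed to 238 and 156 CPM, led by Klre1 under the GFI1 KO label and Eomes in the WT library, and Ncr1, the defining receptor of NK cells, was at 0 under the GFI1 KO label. Macrophage markers summed to 59.9 and 120 CPM, led by Chil3, and endothelial markers to 210.1 and 428 CPM, led by Pecam1, which T cells also express. The markers of innate lymphoid cells summed to 179 and 193 CPM, led by Rora, with Il13 and Calca at 0 in both libraries.

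Gfi1 itself was read in 13 UMIs from 13 cells of the GFI1 KO library (14.2 CPM) and in 17 UMIs from 14 cells of the WT library (10.4 CPM). The ratio was 1.37 (0.610 to 2.99), so the level of this RNA did not separate the labels. Whether these 3′ reads come from outside the deleted part of the gene is not given in the sources used here, so they check nothing. Gfi1b, the paralog, had no UMI in memory-type cells. Genes of the GFI1 repressor complex were close to level: Kdm1a, the histone demethylase LSD1, had a ratio of 1.08 (0.844 to 1.38), Rcor1 (CoREST) 0.848 (0.666 to 1.07) and Chd4, a chromatin remodeller, 0.942 (0.805 to 1.10).

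Memory-type cells made up more of the CD8 T cells under the GFI1 KO label. They were 168 of 356 CD8 T cells (47.2%, 41.9 to 52.5) in the GFI1 KO library and 293 of 1067 (27.5%, 24.8 to 30.2) in the WT library. The difference was 19.7 percentage points (13.8 to 25.7). Effector-type cells were 26.4% and 11.1%, and naive-type cells 26.4% and 61.5%. Of all T cells, memory-type cells were 19.9% and 10.1%, a difference of 9.77 points. Of all filtered lung cells they were 1.60% and 1.51%, and that difference of 0.0859 points (-0.209 to 0.394) spanned 0, since CD8 T cells as a whole were fewer in the GFI1 KO library, 356 of 10495 cells against 1067 of 19342. With every cell thinned to 1500 UMIs, 33.1% and 8.31% of CD8 T cells met the rule. No CD8 T cell fell under that depth. As a share of all cells that reached this depth, the members then were 0.482% and 0.180%, a difference of 0.302 points (0.159 to 0.464). With at least 3 memory genes required they were 1.24% and 0.600% of all cells, a difference of 0.639 points (0.404 to 0.892), and with no effector gene allowed 0.972% and 1.17%, a difference of -0.197 points (-0.438 to 0.0569). The share of all cells thus had no settled direction. When no effector gene was allowed, the difference among CD8 T cells was 7.47 points, because 66 GFI1 KO and 67 WT members held 1 effector gene, most often Fasl under the GFI1 KO label.

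**Figure D1:**
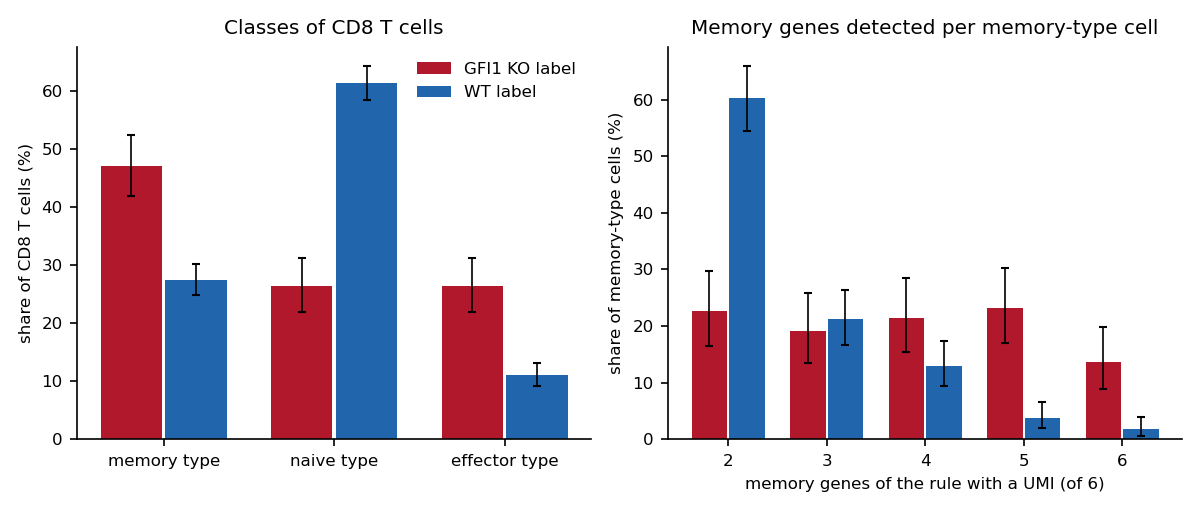
Left, share of CD8 T cells (%) in the memory, naive and effector type of each library; right, share of memory-type cells (%) by the number of memory genes with a UMI; bars are shares and whiskers exact 95% counting intervals. The memory type stands at 47.2% in the GFI1 KO library and 27.5% in the WT library, and 60.4% of WT members sit at 2 memory genes against 22.6% of GFI1 KO members.

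The genes of the rule were distributed differently in the 2 libraries. These values chose the cells and are given as a description. Exactly 2 memory genes were seen in 38 of 168 GFI1 KO members (22.6%) and in 177 of 293 WT members (60.4%). Of those cells, 60.5% and 62.7% held the pair Ly6c2 and Il2rb. At least 4 memory genes were seen in 98 GFI1 KO members (58.3%) and in 54 WT members (18.4%). Il2rb was found in 156 and 268 members and Ly6c2, a surface antigen of memory and other T cells, in 143 and 237, similar shares of both libraries. Klrc1, which encodes the inhibitory receptor NKG2A, was found in 76 and 32 members (245 against 53.7 CPM). Gzmm, a granzyme, was found in 74 and 30 (192 against 29.9 CPM), and Samd3 in 80 and 63 (148 against 72.0 CPM). Ctla2a, a cathepsin inhibitor, was found in 120 and 147 members (672 against 332 CPM). Cd8b1 stood at 953 and 698 CPM.

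Just outside the rule lay CD8 T cells with 1 memory gene, 47 in the GFI1 KO library and 368 in the WT library, and cells with enough memory genes but 2 effector genes, 39 and 22. Ccl5, a chemokine of memory and effector cells that the rule did not use, was read without the WT cells that held over 20 UMIs of other cells' markers, which left 363 WT cells with 1 memory gene and 174 with 2. It read 28.3 and 125 CPM in cells with 1 memory gene. In cells with 2 memory genes, just inside the rule, it read 1181 and 302 CPM.

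The label innate-like memory was checked against genes that the rule did not use. Of 12 memory genes, 8 were at least 2-fold higher in memory-type than in naive-type cells of each library, where 6.54% of genes tested were so in the GFI1 KO and 2.71% in the WT library, and 7 of these in both. Over all genes tested, 88 of 6253 (1.41%) were at least 2-fold higher in both libraries and 12 (0.192%) at least 2-fold lower. Ccl5 stood at 4636 and 1627 CPM (GFI1 KO and WT) in memory-type cells, against 20.8 and 96.9 CPM in naive-type and 15485 and 17688 CPM in effector-type cells. Eomes, the T-box factor of memory CD8 cells, stood at 70.8 and 50.0 CPM against 2.60 and 11.3 in naive-type cells. Tbx21, which encodes T-bet, stood at 81.7 and 31.7 CPM against 0 and 2.82, and Cxcr3, a receptor for interferon-induced chemokines, at 68.6 and 38.4 CPM against 5.21 and 1.06. Cd44 stood at 165 and 149 CPM against 31.2 and 63.4. Against effector-type cells, none of the 12 memory genes was at least 2-fold higher and 4 were lower in the GFI1 KO library (4.27% of all genes tested in either direction), and 1 was higher and 8 lower in the WT library (5.75% and 6.19%, median ratio of the list 0.412). Ccl5, Tbx21 and Cxcr3 lay between the naive and the effector type.

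Genes of naive cells stayed present. Of 12 naive genes, 8 were at least 2-fold higher in memory-type than in effector-type cells of both libraries, where 96 of 6614 genes tested were (1.45%), and 171 (2.59%) were at least 2-fold lower. Il7r, the IL-7 receptor chain of long-lived T cells, stood at 2235 and 1887 CPM, against 2275 and 1878 CPM in naive-type cells. Ccr7, the lymph node homing receptor, stood at 674 and 869 CPM, against the 846 and 910.4 CPM of naive-type cells and the 188 and 215 CPM of effector-type cells. None of the 12 naive genes was 2-fold below the naive type in the WT library (1.31% of genes tested were), and 3 were in the GFI1 KO library (2.36%), so none was in both.

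Among 12 genes of antigen-experienced or resident cells, 7 were at least 2-fold lower in memory-type than in effector-type cells of both libraries. Over all genes tested, 171 of 6614 (2.59%) were. Against naive-type cells, 3 of the 12 were at least 2-fold higher and 5 lower in the GFI1 KO library (6.54% and 2.36% of genes tested, median ratio of the list 0.659). In the WT library 4 were higher and 1 lower (2.71% and 1.31%, median ratio 1.38), and in both libraries 1 was higher and 1 lower (1.41% and 0.192%). Zeb2, a factor of terminal effectors, stood at 22.9 and 26.2 CPM against 377 and 775. Itga4 stood at 135 and 450 CPM, below both the naive type (336 and 612) and the effector type (373 and 992) in each library. In the GFI1 KO library the cells therefore matched the label in their memory genes, Ccr7 and low Itga4. In the WT library Ccl5, Eomes, Tbx21 and Cxcr3 stood lower than in the GFI1 KO library and Cd44 close to level, and the naive genes stood near the naive type. They are called memory-type here, after the rule.

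**Figure D2:**
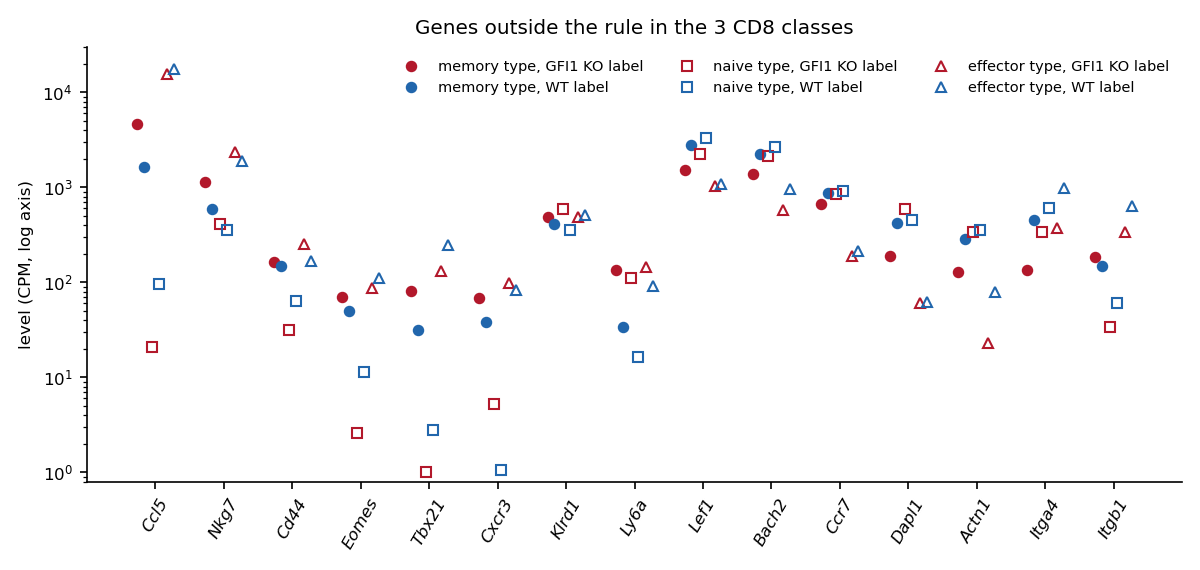
Levels (CPM, log axis, a level of 0 drawn at 1) of 15 genes outside the rule in memory-type (filled circles), naive-type (squares) and effector-type (triangles) CD8 T cells, coloured by library. Ccl5 spans 20.8 to 17688 CPM over the classes with memory-type cells in between, while Ccr7 in memory-type cells (674 and 869 CPM) lies nearer to the naive than to the effector type.

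Among the genes that set memory-type cells highest above naive-type cells in both libraries were, beside Tbx21, Cxcr3 and Ccl5, the activating receptors Klrc2 and Klrk1, the RNA Ifngas1, which lies by the interferon-γ gene, the IL-18 receptor chain Il18rap, the factor Runx2 and an unnamed gene, ENSMUSG00000121360. The unnamed gene was held by 31 GFI1 KO and 35 WT members, at 182 and 199 CPM, against 0 and 0.352 CPM in naive-type cells. Ifngas1 stood at 194 and 102 CPM, also above the effector type (76.5 and 24.1). Against effector-type cells the leading genes were Ccr7, Actn1, Patj, Rflnb, Pmepa1, Rapgef4, Inpp5a, Zbtb10, Hspbap1 and Metap1d. Patj, which encodes a cell polarity scaffold, stood at 162 and 353 CPM in memory-type and at 34.4 and 100.5 CPM in effector-type cells. Hspbap1 was 4.23 and 6.46 times as high as in effector-type cells.

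Between the labels, 184 of 8009 genes tested (2.3%) were at least 2-fold higher in memory-type cells under the GFI1 KO label and 314 (3.92%) at least 2-fold lower. Without the 3 WT cells with transcripts of other cells, 171 of 7914 genes (2.16%) were higher and 275 (3.47%) lower. With the ribosomal, mitochondrial and Gm- genes kept in the denominator, the split was 126 higher and 413 lower. With at least 3 memory genes required, the balance turned to 230 higher and 197 lower, and after thinning to 1500 UMIs it was 23 higher and 20 lower of 440 genes. The change of denominator moved the median log2 ratio of all genes from -0.02 to -0.13. The whole interval lay past 1.5-fold for 105 genes higher (1.31%) and 168 lower (2.1%), or 99 (1.25%) and 132 (1.67%) without the 3 WT cells. In naive-type cells 146 of 8272 genes (1.76%) were higher and 681 (8.23%) lower, and in effector-type cells 174 of 6299 (2.76%) and 273 (4.33%). The classes differ in cells and UMIs, so these counts are not ranked.

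**Figure D3:**
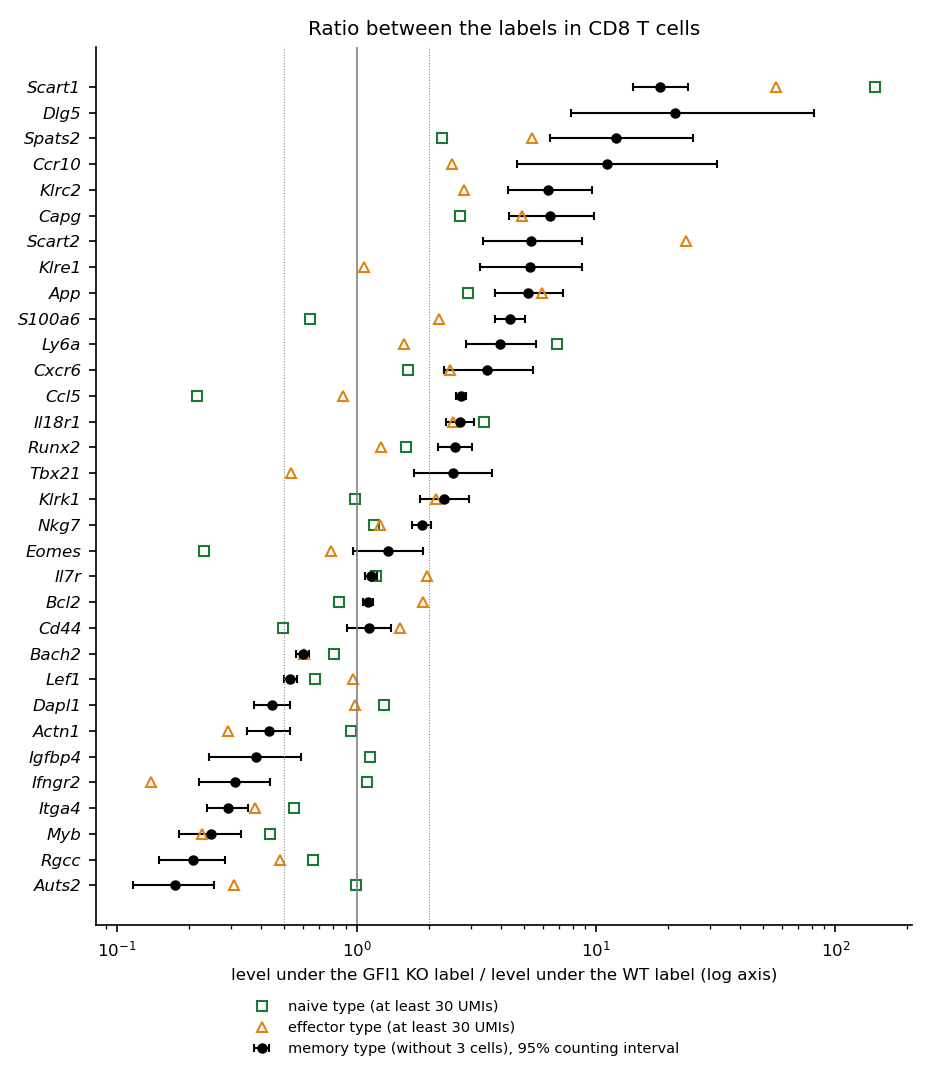
Ratio of the level under the GFI1 KO label to that under the WT label (log axis) for genes named in the text, in memory-type cells without the 3 WT cells (black points with 95% counting intervals), naive-type cells (squares) and effector-type cells (triangles); dotted lines mark 2-fold. Scart1 (18.5), Dlg5 (21.4) and Spats2 (12.1) lie far to the right, Il7r and Bcl2 lie near 1, and Rgcc and Auts2 lie near 0.2.

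Scart1 had the clearest difference. It encodes a scavenger receptor known from γδ T cells of the IL-17 type. Memory-type cells held 692 UMIs of Scart1 (753 CPM) under the GFI1 KO label and 64 UMIs (39.0 CPM) under the WT label, a ratio of 19.3 (14.9 to 25.3). A UMI was found in 107 of 168 GFI1 KO members (63.7%, 55.9 to 71.0) and in 15 of 293 WT members (5.12%, 2.89 to 8.30). Thinned to 1500 UMIs, the shares were 41.1% and 2.05%. B cells, which should lack the gene, had a UMI in 3 of 937 cells (0.320%, median depth 4215 UMIs) and 1 of 3051 cells (0.0328%, 4657 UMIs), and in none when thinned, which allows shares of up to 0.395% and 0.121%. The signal in the GFI1 KO library was spread over cells: 56 members held at least 5 UMIs, and the highest held 34, 28 and 19. In the WT library 23 of the 64 UMIs came from 1 cell, and with the highest cell of each library left out the ratio was 28.7. The log2 ratio, 4.27 over all members, was 3.22 with at least 3 memory genes required, 5.79 with no effector gene allowed and 2.07 when the members were chosen anew after thinning.

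Scart1 was also read in the other CD8 classes. Naive-type cells read 258 CPM under the GFI1 KO label, with a UMI in 32 of 94 cells (34.0%), and 1.76 CPM under the WT label, with 5 UMIs in 1 of 656 cells. Effector-type cells read 400 and 7.08 CPM, with a UMI in 28 of 94 and 4 of 118 cells. In the GFI1 KO library memory-type cells were therefore the highest of the classes, 2.92-fold above the naive and 1.88-fold above the effector type. Scart2, a related receptor gene, read 84.9 and 15.2 CPM in memory-type cells, a ratio of 5.57 (3.51 to 9.13), and its log2 ratio of 2.48 was 1.48 with at least 3 memory genes required. How reads shared by these related genes were assigned is not given in the sources used here, so their division is uncertain.

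GFI1 KO members with and without a Scart1 UMI were close in αβ T cell receptor and CD8 transcripts. Trac, the alpha chain constant gene, read 465 CPM in the 107 cells with and 484 CPM in the 61 cells without, and Trbc2, a beta chain constant gene, 1734 and 1637 CPM. Trgc1, a γ chain constant gene, had 15 UMIs (24.8 CPM, 13.9 to 40.9) in the cells with and 3 UMIs (9.55 CPM, 1.97 to 27.9) in those without. Cd8a, which the rule did not use, read 301 and 303 CPM. Cd8b1, which the rule required in every member, read 918 and 1019 CPM. The CD8a antibody tag had medians of 471 and 419 UMIs. Ccl5 read 4796 and 4328 CPM. Itga4 was lower in the cells with Scart1, 69.5 against 261 CPM, as was Dapl1, a gene of naive and early memory CD8 cells, 142 against 274 CPM. Runx2 was higher, 488 against 312 CPM. Cells with Scart1 were deeper (median 8741 against 7252 UMIs) and held a median of 4 memory genes against 3, and the part of this in the values was not tested.

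Other genes of IL-17-type T cells were sparse. Of 22 such genes in the files, 11 had the 30 UMIs needed, of which 5 were at least 2-fold higher under the GFI1 KO label and 1 lower (2.3% and 3.92% of all genes tested), or 6 and none of 9 without the 3 WT cells. With the CD8a tag required, 3 were higher and 4 lower of 8, and with at least 2 Cd8b1 UMIs 3 and 3 of 7. The UMIs were summed over both libraries, so a sparse gene could enter only through the library where it was high, as Il17a did, and nothing is read from these counts. Blk, a kinase of these cells, had 4 UMIs under the GFI1 KO label and none in the WT library. Maf, a factor of the same program, read 11.98 and 15.9 CPM, a ratio of 0.755 (0.337 to 1.58). Il17a had 34 UMIs under the GFI1 KO label, all from 3 cells with 16, 14 and 4, against 2 UMIs from 1 WT cell. Over all members Trgc1 had 18 UMIs in 9 cells against 1 UMI, while Trgc2 had 3 and 4. Tmem176a switched side with the 3 WT cells: its ratio was 0.388 (0.175 to 0.780) with them and 4.28 without. It had 10 GFI1 KO UMIs in 5 cells, and of its 46 WT UMIs 29 came from the highest cell and 13 from the next. The ratio of 4.28 therefore rests on few UMIs and is uncertain.

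The leading genes beside Scart1 and Il17a were mostly found in few WT cells. Dlg5, a polarity scaffold, read 54.4 and 2.44 CPM, a ratio of 22.3 (8.19 to 85.1), in 38 and 3 cells, and its log2 ratio of 4.48 was 3.42 with at least 3 memory genes required. Spats2 read 84.9 and 7.93 CPM, a ratio of 10.7 (5.91 to 21.0). Ccr10, a skin and mucosal homing receptor, was found in 34 and 3 cells, with a ratio of 11.6 (4.88 to 33.5). The GFI1 KO UMIs of these genes were spread over 33 to 38 cells each. Runx2os1, antisense to Runx2, had a ratio of 8.93 (4.47 to 19.7) and Runx2 itself 2.64 (2.25 to 3.09). Whether counting used strand is not given in the sources used here, so their division is uncertain. S100a6, a calcium-binding protein of activated cells, read 775 and 195 CPM, a ratio of 3.97 (3.48 to 4.55), with a log2 ratio that fell to 0.76 when the members were chosen anew after thinning. Capg, an actin-capping protein, read 131 and 21.95 CPM, a ratio of 5.95 (4.07 to 8.90). App, the amyloid precursor protein, read 172 and 36.6 CPM, a ratio of 4.70 (3.47 to 6.44). Capg and App were higher under the GFI1 KO label in all classes, at 2.71 and 4.92 for Capg and 2.91 and 5.98 for App in naive-type and effector-type cells.

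1 gene of this group rested on a single cell. Cenpf, a mitotic protein, had a ratio of 6.55 (3.399 to 13.6), but 39 of its 44 GFI1 KO UMIs came from 1 cell, and without the highest cell of each library the ratio was 1.28.

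Of the 12 memory genes outside the rule, 6 were at least 2-fold higher under the GFI1 KO label and none lower, against 2.3% and 3.92% of all genes tested, with a median log2 ratio of 1.03, against -0.02 over all genes tested. With at least 3 memory genes required, 2 of the 12 were higher and none lower. Ccl5 had a ratio of 2.85 (2.71 to 2.99) and was found in 122 of 168 and 130 of 293 cells. Its log2 ratio, 1.51 over all members, was 0.64 with at least 3 memory genes required and 0.17 when the members were chosen anew after thinning. Il18r1, the receptor chain for IL-18, read 587 and 210.4 CPM, a ratio of 2.79 (2.43 to 3.20). Ly6a, the Sca-1 antigen, had a ratio of 3.92 (2.84 to 5.48), Tbx21 2.58 (1.78 to 3.74), Klrk1 (NKG2D) 2.40 (1.90 to 3.05) and Xcl1, a chemokine for cross-presenting dendritic cells, 2.17 (1.37 to 3.45). Of the 37 WT UMIs of Xcl1, 20 came from 1 cell, and its log2 ratio of 1.12 was 2.07 without the highest cell of each library and 0.27 with at least 3 memory genes required. That of Klrk1, 1.27 over all members, was 0.50 with at least 3. For Tbx21, 21 of the 75 GFI1 KO UMIs came from 1 cell. Cd44, with a ratio of 1.11 (0.899 to 1.36), Id2, an inhibitor of DNA binding, with 1.18 (0.963 to 1.45), and Klrd1 (CD94), with 1.20 (1.06 to 1.35), were close to level. Il18r1 was also higher in naive-type (ratio 3.42) and effector-type cells (2.53), whereas the Ccl5 ratio in effector-type cells was 0.875. A Ccl5 UMI was found in 72.6% and 44.4% of memory-type cells, and in 65.5% and 29.0% when thinned. B cells, which should lack it, had one in 2.35% and 8.42% (median depths 4215 and 4657 UMIs). The 5.32% and 8.54% of naive-type cells (6571 and 6073 UMIs) lay close to that background, so the naive-type levels of Ccl5 are not compared between the labels.

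Cytotoxic and secreted molecules were at least 2-fold higher for 5 of 16 genes tested and lower for none, against 2.3% and 3.92% of all genes tested, with a median log2 ratio of 0.87. None of 15 was 2-fold apart with at least 3 memory genes required. Nkg7, a granule protein, read 1126 and 585 CPM, a ratio of 1.92 (1.76 to 2.10), in 158 and 256 cells. Its log2 ratio, 0.94 over all members, was 0.10 when the members were chosen anew after thinning. Crtam, an adhesion receptor of activated CD8 cells, had a ratio of 2.14 (1.48 to 3.12) and Ctsw, a cathepsin of killer cells, 1.80 (1.53 to 2.12). Ifng and Ccl4 rested on few UMIs, 28 against 20 and 18 against 12, with ratios of 2.50 (1.36 to 4.68) and 2.68 (1.22 to 6.10). Srgn, a granule proteoglycan with 987 and 1647 UMIs, had a ratio of 1.07 (0.988 to 1.16).

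Killer receptors and adaptors were at least 2-fold higher for 3 of 11 genes tested and lower for none (median log2 ratio 0.57), against 2.3% and 3.92% of all genes tested, or 4 of 10 without the 3 WT cells. Klrc2, the activating partner of Klrc1, was found in 55 GFI1 KO and 22 WT members, at 133 and 20.1 CPM, a ratio of 6.60 (4.46 to 10.0). With at least 3 memory genes required, its log2 ratio of 2.72 was 2.06 and that of Klre1, 2.40 over all members, was 1.78. Its effector-type levels were 251 and 89.2 CPM, and naive-type cells had 0 and 1 UMI. B cells, which should lack it, had a Klrc2 UMI in 0.320% and 1.05% of cells, against 32.7% and 7.51% of members, or 11.3% and 1.37% of members when thinned. Klre1 read 80.6 and 15.2 CPM, a ratio of 5.29 (3.32 to 8.68), but its effector-type ratio was 1.07. Klrb1c, the NK1.1 antigen of NK and NKT cells, had 3 and 5 UMIs. These receptor genes are close in sequence, and the assignment of their shared reads is uncertain.

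Of 25 homing receptors and related surface genes tested, 5 were at least 2-fold higher and 4 lower, against 2.3% and 3.92% of all genes tested. The list also holds Ly6a, a surface antigen and not a homing receptor, which is 1 of the 5. Among the others were, beside Ccr10, Ccr2, a receptor for inflammatory chemokines, with a ratio of 4.52 (2.97 to 7.03), and Cxcr6, a receptor of resident cells, which read 78.4 and 21.3 CPM, a ratio of 3.67 (2.42 to 5.67). Of its 72 GFI1 KO UMIs 18 came from 1 cell, and with the CD8a tag required its log2 ratio of 1.88 was 1.20. Lower were 4 integrin and gut-homing genes. Itga4 was found in 50 of 168 GFI1 KO members and in 212 of 293 WT members, with a ratio of 0.300 (0.246 to 0.363). Ccr9, the receptor for a gut chemokine, had a ratio of 0.282 (0.123 to 0.574), Itgae, which encodes CD103, 0.412 (0.218 to 0.730), and Itga6 0.429 (0.302 to 0.599). Among members with 2 memory genes the Ccr9 ratio was 0.814 (0.353 to 1.67). Those with 3 had 0 GFI1 KO and 5 WT UMIs of Ccr9, and those with 4 to 6 had none in either library. Itga4 was below 1 in the other classes too, at 0.548 in naive-type and 0.376 in effector-type cells, and Itgae at 0.665 and 0.290. Itgb1, the beta chain that pairs with Itga4, had a ratio of 1.23 (1.01 to 1.51).

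Naive-cell genes were at least 2-fold lower under the GFI1 KO label for 3 of 12 and higher for none, against 3.92% and 2.3% of all genes tested, with a median log2 ratio of -0.30. The 3 were Dapl1 at 187 and 419 CPM, a ratio of 0.447 (0.376 to 0.529), Actn1, an actin cross-linker, at 0.443 (0.358 to 0.543), and Igfbp4, a growth factor binding protein, at 0.383 (0.243 to 0.583). Lef1, a factor of naive and stem-like T cells, read 1522 and 2815 CPM, a ratio of 0.541 (0.509 to 0.574), and Bach2, which holds back effector genes, 1389 and 2259 CPM, a ratio of 0.615 (0.577 to 0.655). Tcf7, the partner of Lef1, had a ratio of 0.937 (0.831 to 1.06) and Klf2, a factor of quiescence, 0.989 (0.928 to 1.05). The intervals of Dapl1, Lef1 and Bach2 lay below 1, and those of Tcf7 and Klf2 held 1. The order of Tcf7 and Bach2 turned when the members were chosen anew after thinning, with log2 ratios of -0.997 and -0.01, against -0.09 and -0.70 over all members, and that of Ccr7 went from -0.37 to -1.10.

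Of 33 transcription factors tested, 4 were at least 2-fold higher and 2 lower, or 4 and 1 of 32 without the 3 WT cells, where 2.3% of all genes tested were higher and 3.92% lower. Of 31 tested with at least 3 memory genes required, 1 was higher and 2 lower. Beside Tbx21, the higher ones were Hopx, a factor of effector and memory cells, at 258 and 115 CPM (ratio 2.25, 1.85 to 2.74), Nfil3, needed for NK cells, at 2.79 (1.64 to 4.80), and Irf4, a factor of T cell receptor strength, at 4.96 (2.24 to 12.1) on 25 and 9 UMIs. Eomes had a ratio of 1.42 (1.01 to 1.98). Myb, a factor of stem-like T cells, was lower, at 57.7 and 226 CPM, a ratio of 0.256 (0.188 to 0.342), in 25 and 99 cells. Its ratio was also below 0.5 in naive-type (0.434) and effector-type cells (0.225).

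Cytokine receptors and their signalling genes were at least 2-fold higher for 4 of 28 and lower for 3 (2 and 2 of 24 with at least 3 memory genes required), against 2.3% and 3.92% of all genes tested, with a median log2 ratio of 0.0043. Socs3, a feedback inhibitor of cytokine signalling, was higher at 2.15 (1.70 to 2.74), and at 3.73 in naive-type cells. Ifngr2, a chain of the interferon-γ receptor, read 46.8 and 146 CPM, a ratio of 0.321 (0.227 to 0.446), and Stat5a, which carries IL-2, IL-7 and IL-15 signals, 37.0 and 105 CPM, a ratio of 0.353 (0.237 to 0.512). In naive-type cells both were near level, at 1.10 and 0.896, and in effector-type cells both were low, at 0.139 and 0.274. Il7r was at 1.18 (1.12 to 1.25) and Il2rg, the shared receptor chain, at 1.21 (1.05 to 1.39).

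The lowest ratios of all belonged to airway genes read almost wholly in 1 WT cell, such as Scgb1a1, with 20 and 15951 UMIs, of which 15691 came from 1 cell, and Scgb3a2, with 2 and 1580, of which 1568 came from 1 cell. Without the 3 WT cells, several of the lowest genes still rested on 1 WT cell. Hdac9, a histone deacetylase, had 4 UMIs against 624, of which 538 came from 1 cell, Ptprk none against 174, of which 135 came from 1 cell, and Slit3 none against 40, all from 1 cell. Others were spread over many cells. Rgcc, a cell cycle regulator, read 51.2 and 243 CPM in 31 and 152 cells, a ratio of 0.210 (0.152 to 0.285). Auts2 had a ratio of 0.174 (0.116 to 0.252), in 14 and 66 cells, and Cyth3, which activates Arf proteins, 0.171 (0.0829 to 0.317), in 9 and 86 cells. Sox4 was found in 2 and 31 cells, a ratio of 0.0812 (0.00953 to 0.311). 1700062C10Rik had no UMI under the GFI1 KO label against 64 in 13 WT cells, at least 11.9-fold lower against a floor of 3 UMIs over the library's members. Auts2 and Rgcc were at 0.997 and 0.659 in naive-type cells.

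None of 18 costimulatory and checkpoint receptors, 17 T cell receptor signalling genes, 15 survival genes or 15 genes of the MHC class I pathway was 2-fold apart in either direction. Neither was any of the 8 genes tested from the list of Gfi1 and its partners. Over all genes tested 2.3% were higher and 3.92% lower, so counts of 0 in lists this short lie near the background and do not set these groups apart. Cd28 had a ratio of 0.904 (0.800 to 1.02), Trbc2 1.14 (1.07 to 1.21), Bcl2, the survival factor of memory cells, 1.15 (1.10 to 1.21) and B2m 1.11 (1.05 to 1.17). Of 34 interferon-stimulated genes tested, 3 were lower and none higher. Isg15, the lowest of them, had a ratio of 0.432 (0.228 to 0.768). With at least 3 memory genes required, none of 26 interferon-stimulated genes was 2-fold apart. Of 22 immediate-early and stress genes, 4 were lower and none higher, or 3 of 21 without the 3 WT cells and 2 of 20 with at least 3 memory genes required. Nr4a2 and Nr4a3, orphan receptors induced by T cell receptor signals, had ratios of 0.359 (0.254 to 0.496) and 0.325 (0.238 to 0.437). Egr1 had 0.152 (0.0594 to 0.328), and 0.375 without the 3 WT cells. Of 18 cell cycle genes, 5 were higher and none lower, or 4 without the 3 WT cells and 9 of 15 with at least 3 memory genes required. These came from few cells: Mki67, the proliferation antigen, was found in 9 and 5 cells, and Birc5 (survivin) in 7 and 5, with ratios of 2.05 (1.36 to 3.08) and 3.15 (1.98 to 5.11).

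Since the GFI1 KO members held more memory genes each, the labels were also compared among members with the same number of memory genes: 2 (38 GFI1 KO and 174 WT cells, the 3 WT cells left out), 3 (32 and 62) and 4 to 6 (98 and 54). Median depths were 7511.5 and 7255, 7793 and 8280.5, and 8741.5 and 9174 UMIs. Within these groups the Scart1 ratio stayed above 5. It read 462 and 4.46 CPM at 2 memory genes, 493 and 8.82 CPM at 3 (ratio 55.8, 18.4 to 277, on 3 WT UMIs) and 920.5 and 170 CPM at 4 to 6 (ratio 5.42, 4.12 to 7.26). At 1 memory gene, outside the rule, it read 381 and 3.01 CPM. Among WT cells Scart1 was found in 18.5% of those with 4 to 6 memory genes and in 1.72% of those with 2.

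Other genes lay on the same side of 1 in every group, with ratios that varied between the groups. Capg had ratios of 5.70, 11.0 and 5.27, App 3.58, 5.79 and 3.64, Il18r1 2.96, 3.48 and 1.77, and S100a6 5.83, 6.91 and 1.96 at 2, 3 and 4 to 6 memory genes. Lef1 had 0.587, 0.543 and 0.646, and Actn1 0.633, 0.463 and 0.384. Ly6a had 5.92, 6.34 and 2.55, and Runx2 1.93, 1.62 and 1.96. Itga4 read 304 and 482 CPM, 285 and 573 CPM, and 38.4 and 310 CPM, so its ratio was lowest, at 0.124 (0.0744 to 0.198), among cells with 4 to 6 memory genes. An Itga4 UMI was found in 15 of those 98 GFI1 KO cells and in 32 of the 54 WT cells.

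Genes of the memory label did not move alike in these groups. Ly6a and Il18r1, given above, and Ccl5 and Cxcr3 had larger ratios at 2 memory genes than over all members, those of Il18r1 and Cxcr3 by less than their intervals, and smaller ones at 4 to 6. Ccl5 had a ratio of 3.91 at 2 memory genes, 1.32 (1.18 to 1.48) at 3 and 1.31 (1.23 to 1.39) at 4 to 6, where it read 6185 and 4731 CPM. Eomes had ratios of 1.30, 0.964 and 0.791, and read 87.2 and 110.2 CPM at 4 to 6 memory genes. Cxcr3 had 2.69 (0.977 to 6.87), 1.56 and 0.787, against 1.79 over all members, and Cd44 1.40, 0.664 and 0.831. Tbx21 had 1.25, 0.630 and 1.78, with the last interval from 1.09 to 3.03. Over all members 21 of its 75 GFI1 KO UMIs came from 1 cell, and its ratios by group are not given without that cell. At 4 to 6 memory genes the ratios of Eomes, Cxcr3 and Cd44 were thus below 1, with intervals that held 1, and that of Ccl5 was smaller than over all members. The ratios of Scart1, Capg and App were also smaller there than over all members, that of Scart1 by the most, and each was above 3. The ratio of Itga4 lay further from 1 than over all members. The number of memory genes detected also depends on depth, and the part of depth within a group was not tested.

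**Figure D4:**
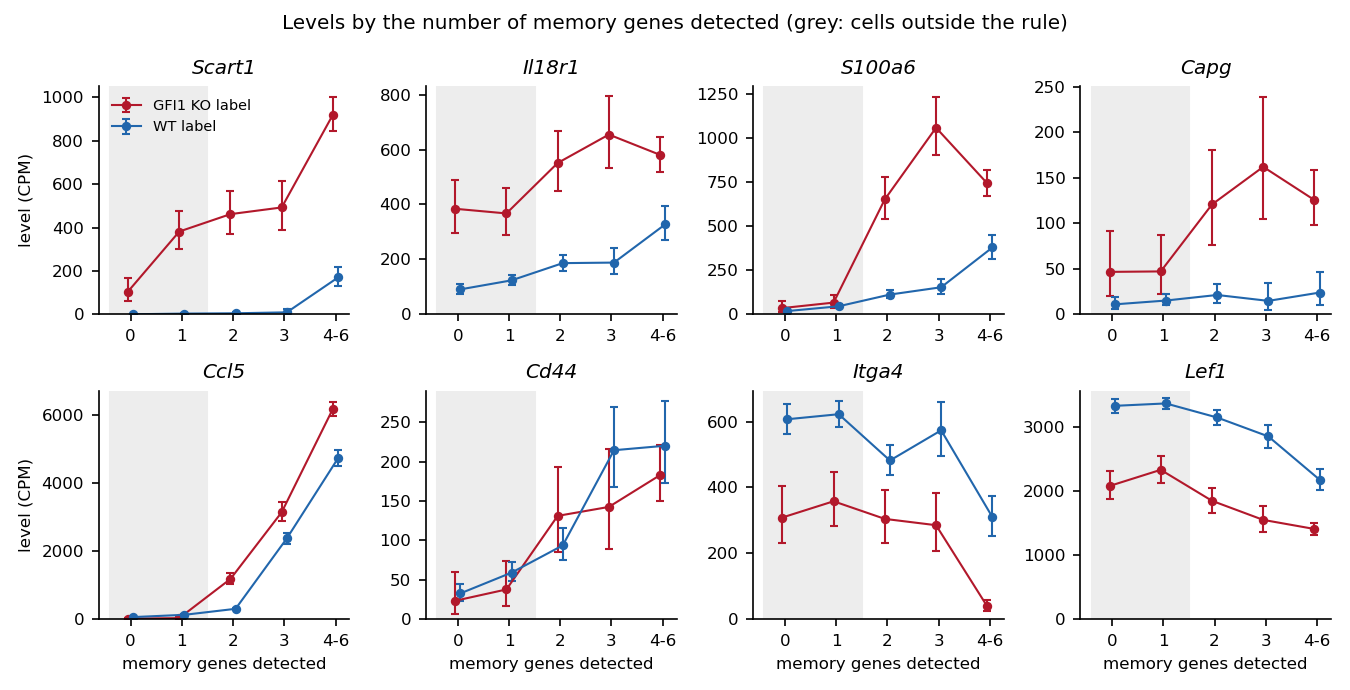
Level (CPM) of 8 genes by the number of memory genes detected per CD8 T cell (0 and 1, grey, lie outside the rule), for each library, with 95% counting intervals. Scart1 stays higher under the GFI1 KO label at every number, the Ccl5 lines of the libraries run close from 3 memory genes on (ratio 1.32), and Itga4 drops to 38.4 CPM under the GFI1 KO label at 4 to 6.

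Antibody tags, which count bound antibodies on the same cells, did not enter the rule. The CD8a tag reached at least 30 UMIs in 165 of 168 GFI1 KO members and in 290 of 293 WT members, with medians of 458.5 and 391, against medians of 1 and 3 in B cells. The CD4 tag had a median of 0 in both and reached 30 in none and 3 cells. The NK1.1 tag reached 30 in 1 cell of each library. The protein readout thus placed nearly all members among CD8 cells.

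The tag of CD127, the protein of Il7r, overlapped between the memory and the naive type. Its median was 21 and 16 UMIs in memory-type, 14 and 13 in naive-type, 12 and 7 in effector-type and 3 and 6 in B cells. The quartiles in the WT library ran from 11 to 23 in memory-type and from 9 to 18 in naive-type cells. Per 1000 tag UMIs the tag read 12.6 and 12.03 in these WT classes, and 13.7 and 10.3 in the same classes of the GFI1 KO library. It reached 30 UMIs in 25.6% (19.2 to 32.9) of GFI1 KO and 8.53% (5.60 to 12.3) of WT members. The median was 19, 20 and 21 UMIs at 2, 3 and 4 to 6 memory genes under the GFI1 KO label and 16, 15.5 and 16.5 under the WT label. Outside the rule it was 12 in both libraries with no memory gene, and 15 and 14 with 1. Per 1000 tag UMIs the ratio between the labels was 1.08 (1.04 to 1.13). The KLRG1 tag, a mark of terminal effectors, had medians of 0 and 1 in memory-type and 2 and 33 in effector-type cells, and reached 30 UMIs in 1 and 2 members.

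Tag depth differed between the libraries, with medians of 1610.5 and 1267 tag UMIs per member, and in the same direction in naive-type, effector-type and B cells. The CD45 tag stood at medians of 1023 and 751. Per 1000 tag UMIs, CD45 (1.18) and CD127 were the tags above 1 in memory-type cells. Every other tag was below 1, among them the isotype controls at 0.306 and 0.319, the CD8a tag at 0.810 and the CD196 (CCR6) tag at 0.296. As the controls moved with the low tags, a lower reading of CD196, whose medians were 3 and 8, cannot be told apart from background binding.

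**Figure D5:**
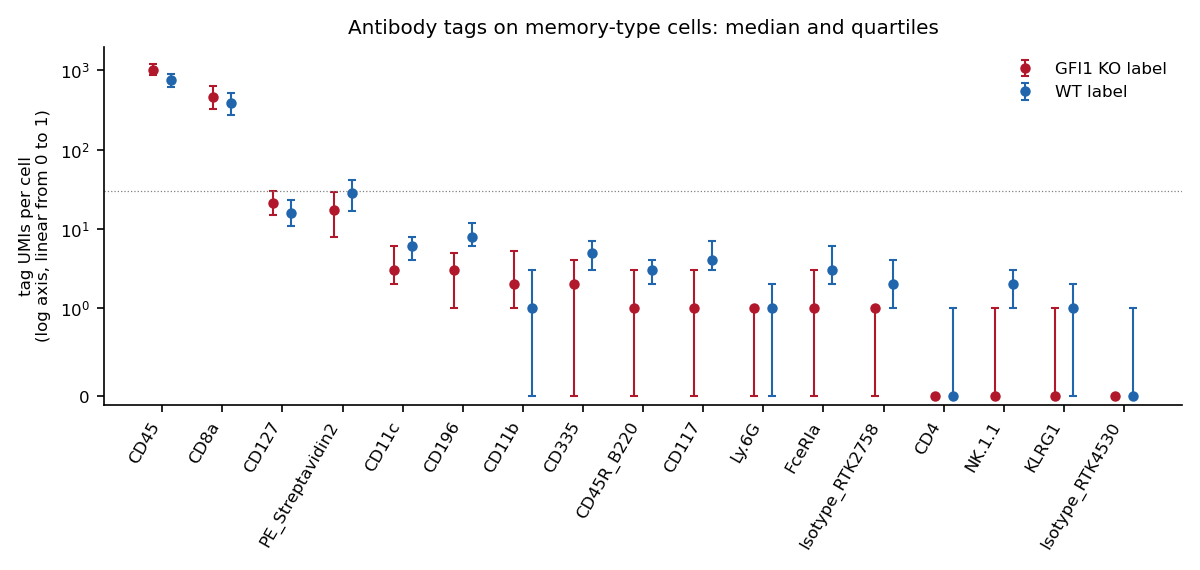
Antibody tag UMIs per memory-type cell (vertical axis logarithmic, linear from 0 to 1), as medians with quartiles, of 17 tags, for each library; the dotted line marks 30 UMIs. CD45 and CD8a stand far above the rest, CD127 comes next with medians of 21 and 16 among the remaining named proteins, and the isotype controls lie at 0 to 2.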

How the data were processed

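The authors deposited raw UMI counts of genes and antibody tags for each called cell, made with Cell Ranger 9.0.1 on GRCm39 (mm39) per the submitters' processing notes; removal of doublets or free RNA is not given in the sources used here. The files hold 33696 genes and 18 antibody tags, whose staining of lung cells the study's methods do not describe. Of the 2 samples for each genotype that the methods name, 1 was analysed here.

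Following the study's filters, cells needed 500 UMIs, 200 genes and at most 20% of UMIs from mitochondrial genes, which kept 10495 of 10700 and 19342 of 19515 cells. UMI counts were added up over each class in each library and divided by their total without ribosomal, mitochondrial and Gm- genes (9538 genes left out), as CPM. Genes with at least 30 UMIs over both libraries, outside the 22 genes of the rule, were tested against a 2-fold limit. Levels carry exact Poisson, ratios exact conditional binomial and shares Clopper-Pearson intervals, and differences of shares combine the bounds of both. Comparisons across classes required 30 UMIs likewise. A count of 0 was bounded by 3 counts. Thinning drew 1500 UMIs per cell once with a fixed seed, leaving out 114 and 421 shallower filtered cells. Doublets were kept; Scrublet called 346 and 1146 cells, among them 0 and 2 memory-type cells, and their removal is an alternative. Python 3.11.15, numpy 2.4.6, scipy 1.17.1, pandas 2.3.3, scanpy 1.11.5 and matplotlib 3.10.9 were used, and the steps were tested on simulated data.

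Members and gene lists were chosen with earlier results of these data known. Named genes were Gfi1 and Gfi1b, the label markers, 3 lists that check the label, Scart1, Scart2, Blk and Maf, the 12 genes highest and lowest by the bound nearer to 1 (also without the 3 cells), from each other list the most abundant, highest and lowest genes, the 10 genes highest above each other CD8 class, and all tags. Other list members named in the text were chosen after their values were seen, as were the limit of 20 UMIs of other cells' markers and the split by memory genes. Some genes and 1 antibody tag are not reported here.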

Additional observations from a re-analysis of the deposited data

How the results depend on the processing

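No paired analysis was possible because each label has 1 library. The counts of 184 genes higher and 314 lower became 23 and 20 after thinning (440 genes tested), 411 and 733 with a minimum of 10 UMIs, 46 and 93 with 100 UMIs, and 105 and 168 by the interval bound past 1.5-fold; with at least 3 memory genes, 197 were lower and 230 higher. Other settings moved them less than 1.5 times: at least 2 Cd8b1 UMIs, no effector gene, no doublets, the CD8a tag, 1500 to 15000 UMIs, the denominators, equal weight of cells and, added after seeing the data, leaving out 3 cells or each gene's top cell. The share difference of 19.7 points was 7.47 without effector genes, 9.77 of all T cells and 0.0859 of all cells, and 19.6 to 25.6 under the remaining settings with CD8 T cells as the base. Of 1617 values for 155 named genes, 1434 moved by less than their counting interval, 155 of them under centring on the median, which shifts every gene alike and tests nothing. Of the rest, 182 moved by more, 19 of them under the denominator of all gene UMIs, which also shifts every gene by 1 constant. 1 was counted as turned: Tmem176a, whose log2 ratio was 0.73 with each cell weighted alike. Other genes changed side in some setting without being so counted. Their log2 ratios ran from -1.47 to 0.93 for Hmgb2 and from -0.58 to 1.09 for Tyrobp. The tally differed between settings: after thinning 34 values moved by more and 10 by less, with at least 3 memory genes 43 and 76, and without effector genes 33 and 108. With at least 3 memory genes the log2 ratio of Cxcr3 was 0.06, and without effector genes that of Isg15 was -0.47. Of 144 values for 18 tags, 55 moved by more. Named genes under 30 UMIs in a setting got no value, 111 of them after thinning and 36 with at least 3 memory genes. The causes were not tested. Depth limits genes with few UMIs, such as Gfi1 and Blk.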
